A study of Homo sapiens with 6 samples.

Results

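The expression of 10 imprinted genes (PEG3, ZIM2, PEG10, SGCE, MEST, MEG3, H19, IGF2, SNRPN and NDN) was described in an androgen-responsive prostate cancer cell line and its enzalutamide-resistant derivative. The genes were taken by name from the gene count table, which held 35554 genes. Of the 10, 9 had a row and 8 had enough counts to enter the test across 19711 genes. MEG3 was not analysed here. The set was proposed with the difference between both lines in view, so its values are given as a description, with no p-value, and support nothing on their own.

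Parental LNCaP cells (n = 3) are an established line from a human prostate cancer metastasis and grow in response to androgens. LNCaP-enzaR cells (n = 3) were derived from them by continuous exposure to enzalutamide, an androgen receptor inhibitor, and were kept afterwards at a lower dose. Each library came from its own flask of cells harvested before confluence, and the labels do not say whether the drug was present at harvest. Each line has 1 culture history, so resistance and other differences between the 2 cultures cannot be told apart, and the spread between flasks measures only the variation within a culture.

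Imprinted genes are expressed from the maternal or the paternal copy only. The choice is set by DNA methylation laid down in the germ line at control regions, which KRAB zinc finger proteins with TRIM28, and DNMT1 with UHRF1, keep in place through cell division. Imprinted genes lie in clusters and many act in fetal growth, and loss or gain of imprinted expression is well known in cancer. Gene counts do not separate both alleles, so the values here are totals over them.

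The libraries held 77759122 to 98616465 counts, and 3 counts corresponded to 0.0302 to 0.0382 counts per 1000000 (CPM). Mitochondrial transcripts made up 6.72% to 7.06% of counts in parental cells and 14.7% to 15.5% in LNCaP-enzaR cells. All 10 prostate luminal markers were above 3 counts, with a summed level of 5229 to 5362 CPM in parental and 4496 to 4657 CPM in LNCaP-enzaR libraries. Of 8 fibroblast markers, 6 were above 3 counts (14.7 to 17.9 CPM in sum in parental, 8.24 to 9.03 CPM in LNCaP-enzaR). Of the 4 fibroblast markers tested, COL1A1 was lower and LUM and PDGFRB were higher in LNCaP-enzaR. COL1A2 had no row, and THY1 was at or below 3 counts in every library. Of the basal, leukocyte, endothelial and neuroendocrine lists, each summed on its own, the endothelial list was the highest, at 6.10 CPM at most, and KRT5, TP63, CD3E, CDH5 and INSM1 were at or below 3 counts throughout. In bulk RNA, fewer cells that express a gene and less RNA per cell cannot be told apart.

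Promoter sequences are shown for 3 paternally expressed genes that were measured at moderate levels: MEST and SNRPN, which were lower in LNCaP-enzaR, and NDN, which overlapped between lines. They come from the RefSeq promoter set (GRCh38.p14; 250 bases before and 50 after a start site), where 5 of the 10 genes were matched (MEST, H19, MEG3, NDN and SNRPN). Capitals mark TGCCGC, the core hexamer bound by ZFP57, the zinc finger protein that protects methylated imprints, or its reverse complement GCGGCA. Both strands were searched and overlapping matches were counted separately. For each gene the window with the most CpG dinucleotides is given, which SNRPN shares with SNURF.

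MEST (chr7:130491835-130492134, plus strand): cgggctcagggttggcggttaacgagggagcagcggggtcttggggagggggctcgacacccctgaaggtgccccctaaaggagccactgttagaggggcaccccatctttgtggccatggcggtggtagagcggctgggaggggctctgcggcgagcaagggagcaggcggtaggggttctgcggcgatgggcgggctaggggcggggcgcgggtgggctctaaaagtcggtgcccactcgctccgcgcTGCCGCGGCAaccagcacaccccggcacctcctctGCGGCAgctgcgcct
SNRPN (chr15:24954737-24955036, plus strand): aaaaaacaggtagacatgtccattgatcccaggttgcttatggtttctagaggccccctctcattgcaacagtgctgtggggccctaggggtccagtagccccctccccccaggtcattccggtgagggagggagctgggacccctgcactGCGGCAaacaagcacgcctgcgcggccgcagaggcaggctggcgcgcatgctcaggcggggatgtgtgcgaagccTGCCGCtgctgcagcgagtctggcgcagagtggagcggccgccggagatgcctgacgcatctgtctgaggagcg
NDN (chr15:23687256-23687555, minus strand): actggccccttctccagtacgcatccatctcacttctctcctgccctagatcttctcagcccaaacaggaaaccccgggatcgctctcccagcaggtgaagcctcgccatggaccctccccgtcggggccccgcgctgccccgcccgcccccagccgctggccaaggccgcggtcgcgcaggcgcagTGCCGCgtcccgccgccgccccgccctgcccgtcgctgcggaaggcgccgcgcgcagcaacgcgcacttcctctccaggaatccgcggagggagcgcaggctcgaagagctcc

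The MEST window held 25 CpG dinucleotides and 3 matches to the hexamer, the SNRPN window 18 and 2, and the NDN window 35 and 1. Among 35116 RefSeq promoter windows of the same length, 16.7% held at least 1 match and the median was 14 CpG dinucleotides. The 3 printed windows were chosen for their CpG count, and the hexamer itself holds a CpG. Both values are raised by that choice, so no enrichment can be read from the comparison. Some other windows of MEST and SNRPN, and that of H19, held no match. A match describes the letters in these windows only; methylation was not measured.

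PEG3 showed the largest log2 fold change of the 8 genes tested. It encodes a paternally expressed zinc finger protein, held to be a growth suppressor, and lies on the minus strand of chromosome 19 (ENSG00000198300.14; GRCh38, chr19:56810077-56840728). Parental libraries gave 41727, 39414 and 36392 counts (451, 433 and 463 CPM), and LNCaP-enzaR libraries gave 579, 615 and 776 counts (6.71, 6.96 and 7.82 CPM). All 3 parental values were far above all 3 resistant ones, and each line was narrow, at 449 ± 15.1 CPM in parental cells and 7.17 ± 0.582 CPM in LNCaP-enzaR (SD, n = 3 each). The log2 fold change, LNCaP-enzaR over parental, was -5.97 (SE 0.076), a 62.6-fold lower level. By level PEG3 stood at rank 274 of the 19711 genes in parental cells and at rank 10058 in LNCaP-enzaR, and its log2 fold change had rank 87 from the lowest.

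ZIM2 (ENSG00000269699.6, chr19:56774547-56840729) encodes a second zinc finger protein, starts 1 base from PEG3 on the same strand and shares its first exons. It had 20, 47 and 48 counts in parental libraries and 5, 5 and 6 counts in LNCaP-enzaR. The groups did not overlap (0.448 ± 0.206 CPM against 0.0583 ± 0.00196 CPM; log2 fold change -2.90, SE 0.533), although parental replicate 1 lay well below the other 2 parental libraries. Reads of this pair are hard to assign: 1264 exon bases belong to both genes, 50.9% of the PEG3 exon bases and 50.3% of the ZIM2 exon bases lie in exons of some other gene, and the sources used here do not state whether counting used strand.

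PEG10 and SGCE, which are divergent neighbours on chromosome 7, were both higher in LNCaP-enzaR. PEG10 (ENSG00000242265.6, chr7:94656325-94669695) is a gene of retrotransposon origin needed for placental development. It had 13.4, 13.6 and 14.4 CPM in parental libraries and 43.2, 47.2 and 47.9 CPM in LNCaP-enzaR, so that the lowest resistant library was above every parental one. The means were 13.8 ± 0.556 and 46.1 ± 2.50 CPM (log2 fold change 1.74, SE 0.071; 3.34-fold).

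SGCE (ENSG00000127990.19, chr7:94524204-94656572) encodes epsilon-sarcoglycan, a membrane protein linked to myoclonus-dystonia, and its first base lies 247 bases from that of PEG10 on the opposite strand. It had 57, 39 and 49 counts in parental libraries and 397, 420 and 427 counts in LNCaP-enzaR. The groups were well apart, at 0.556 ± 0.110 CPM and 4.55 ± 0.230 CPM (log2 fold change 3.03, SE 0.172; 8.19-fold). Only 219 exon bases were common to both genes, 3.27% of PEG10 and 1.05% of SGCE. Per kilobase of exon, the ratio of PEG10 to SGCE was 67.9, 98.7 and 72.2 in parental libraries and 29.3, 31.0 and 34.7 in LNCaP-enzaR, without overlap. The size of the ratio depends on the length over all annotated exons, 6689 bases for PEG10 and 20876 for SGCE.

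MEST and SNRPN were lower in LNCaP-enzaR by a much smaller amount. MEST (ENSG00000106484.16, chr7:130486171-130506465), which encodes a putative hydrolase of the mesoderm, had 35.1, 37.3 and 34.2 CPM in parental libraries and 21.5, 21.4 and 24.0 CPM in LNCaP-enzaR. Its groups did not overlap, and its log2 fold change of -0.67 (SE 0.071; 1.59-fold) lay just beyond the limit of 1.5-fold; with upper-quartile scaling it was -0.57, within that limit. Of its exon bases, 27.6% lie in exons on the opposite strand, among them those of the antisense RNA MESTIT1.

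SNRPN (ENSG00000128739.23, chr15:24823637-24978723) encodes a small nuclear ribonucleoprotein of the spliceosome and lies in the Prader-Willi region. It had 28.7, 27.9 and 27.0 CPM in parental libraries and 20.9, 20.5 and 18.6 CPM in LNCaP-enzaR. The groups were apart, and the log2 fold change of -0.48 (SE 0.071; 1.39-fold) did not reach 1.5-fold. SNURF, SNHG14 and further genes share 43.9% of its exon bases on the same strand, so its counts are uncertain.

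NDN (ENSG00000182636.8, chr15:23685400-23687305), which encodes necdin, a growth suppressor of neurons, lies in the same region and none of its exon bases lies in an exon of another gene. It had 59.1, 54.8 and 59.6 CPM in parental libraries and 64.8, 59.0 and 59.8 CPM in LNCaP-enzaR, which overlapped. The log2 fold change was 0.08 (SE 0.063), and it was 0.18 with upper-quartile scaling.

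H19 and IGF2, the reciprocally imprinted pair of chromosome 11, were scarcely detected in either line. H19 (ENSG00000130600.19, chr11:1995176-2001470), a maternally expressed noncoding RNA, had 14, 3 and 2 counts in parental libraries and 27, 9 and 11 counts in LNCaP-enzaR. These groups overlapped, with replicate 1 the highest in each line (log2 fold change 1.27, SE 0.734, and 0.58 without LNCaP-enzaR replicate 1). IGF2 (ENSG00000167244.21, chr11:2129112-2141238), the fetal growth factor, had 1, 0 and 0 counts in parental libraries and 2, 5 and 1 counts in LNCaP-enzaR. It did not enter the test, and no fold change is given at this depth.

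**Figure D1:**
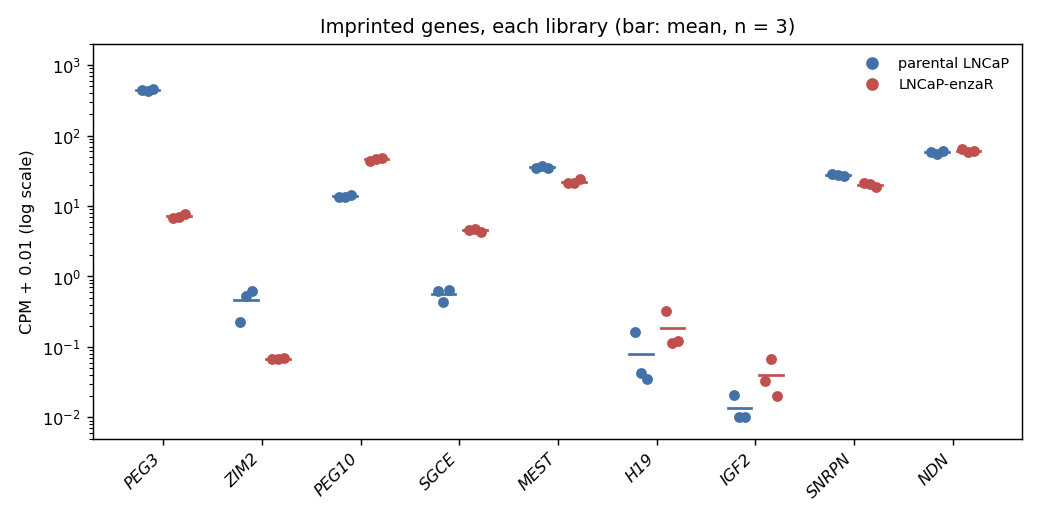
CPM plus 0.01 on a log axis for 9 imprinted genes in each library of parental LNCaP (blue) and LNCaP-enzaR (red), with the mean of 3 libraries as a bar. PEG3 is far lower in LNCaP-enzaR, PEG10 and SGCE are higher, NDN overlaps, and H19 and IGF2 sit near the bottom of the range.

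Over the set, 5 of the 8 genes in the test met the call rule (adjusted p at most 0.05 in edgeR's quasi-likelihood test and at least 1.5-fold), 2 higher and 3 lower in LNCaP-enzaR. Over all genes tested the rule called 42.7%, with 23.3% higher and 19.5% lower. Groups did not overlap for 6 of the 8, compared with 70.6% of all genes. The contrast was in view when the set was drawn up, so nothing is read from these shares. The median log2 fold change of the 8 was -0.20 and that of all genes 0.01, and the median size was 1.51 and 0.57.

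Levels were compared between genes as RPKM, CPM per kilobase of exon over all annotated exons of a gene, so the order depends on that length. In parental cells PEG3 was highest (46.0 ± 1.54 RPKM), followed by NDN (30.3 ± 1.39), SNRPN (8.17 ± 0.248), MEST (7.46 ± 0.337), PEG10 (2.06 ± 0.083), ZIM2 (0.146 ± 0.067), SGCE (0.027 ± 0.0053) and H19 (0.020 ± 0.020), with IGF2 last. Of neighbours in this order, SGCE and H19 overlapped and the others did not. In LNCaP-enzaR NDN was highest (32.1 ± 1.65 RPKM) and PEG10 second (6.89 ± 0.374), ahead of SNRPN (5.87 ± 0.361), MEST (4.68 ± 0.306), PEG3 (0.733 ± 0.060), SGCE (0.218 ± 0.011), H19 (0.051 ± 0.034), ZIM2 (0.019 ± 0.00064) and IGF2, with no overlap between neighbours. PEG3 thus led the order in parental cells only, and PEG10 lay below MEST in parental cells and above it in LNCaP-enzaR.

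The genes whose pattern over the 6 libraries was most like that of PEG3, by Euclidean distance of centred log2 CPM among genes with a mean of at least 1 CPM, were GUCY1A1 (distance 0.281), SLC7A2 (0.408) and MDK (0.425). GUCY1A1, a subunit of the nitric oxide receptor, had 161 ± 4.22 CPM in parental cells and 2.76 ± 0.443 CPM in LNCaP-enzaR. SLC7A2, a transporter of cationic amino acids, had 78.7 ± 1.37 and 1.44 ± 0.239 CPM, and MDK, the growth factor midkine, 26.1 ± 1.48 and 0.458 ± 0.087 CPM. Each was lower in all 3 LNCaP-enzaR libraries than in any parental one. This follows from choosing them by likeness to PEG3 over the same 6 libraries and is no separate result.

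To describe imprinted genes more widely, 58 further imprinted genes were taken, of which 46 had a row and 36 were tested. Of these, 10 were higher, 7 were lower and 19 did not pass (adjusted p at most 0.05 and 1.5-fold, edgeR). The share past the threshold was 47.2%, beside 42.7% of all genes, and the median log2 fold change was 0.07, beside 0.01. Genes of the list moved in both directions: of 14 tested genes listed as paternally expressed, 4 were higher and 3 lower. Of 7 listed as maternally expressed, 5 were higher and 1 lower. Among the higher ones, KCNQ1, SLC22A18, CDKN1C and PHLDA2 lie in the same cluster, that of KCNQ1OT1. Of 15 listed as imprinted in a tissue-dependent way, 1 was higher and 3 lower. Over all genes tested, 23.3% were higher and 19.5% lower. Differences between these classes were not tested. This list, like those of maintenance genes and IGF2 partners below, was chosen with earlier results of these data known. The shares and adjusted p-values of these lists are therefore a description only.

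In the PEG3 domain itself the noncoding RNA MIMT1, whose start lies 138 bases from that of PEG3 on the opposite strand, fell from 1.73 ± 0.354 to 0.202 ± 0.052 CPM (-3.08 on the log2 scale, SE 0.279, adjusted p = 2.11e-07, edgeR). USP29, a paternally expressed deubiquitinase gene beyond it, had 13, 6 and 4 counts in parental libraries and 0, 0 and 0 in LNCaP-enzaR, and was too low to be tested. PEG3, ZIM2, MIMT1 and USP29 all had higher counts in every parental library than in any resistant one. Of all genes tested, 70.6% did not overlap between lines, in either direction. PEG3 and ZIM2 share 1264 exon bases, so their counts are not separate, and those of USP29 were few.

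The other members' clusters gave mixed results. At 14q32, where MEG3 lies, DIO3, which encodes a deiodinase that inactivates thyroid hormone, rose from 0.350 ± 0.098 to 5.52 ± 1.49 CPM (3.98 on the log2 scale, SE 0.242, adjusted p = 2.70e-09, edgeR). Next to MEST, KLF14, a maternally expressed transcription factor gene, rose from 0.099 ± 0.094 to 0.710 ± 0.150 CPM (2.82, SE 0.554, adjusted p = 0.00043, edgeR). Its parental counts were 1, 18 and 7, and its log2 fold change was 3.86 without parental replicate 2. By contrast, the antisense MESTIT1 overlapped between lines (0.128 and 0.160 CPM). In the SNRPN cluster 1 of 5 tested genes passed, where 42.7% of all genes passed and 19.5% were lower. SNHG14, the host transcript of the region's small nucleolar RNAs, fell from 260 ± 7.50 to 159 ± 11.7 CPM (-0.71, SE 0.061). MKRN3, UBE3A and SNURF overlapped between lines, with log2 fold changes of 0.03, -0.01 and -0.09. ATP10A did not overlap and was lower within 1.5-fold (20.4 ± 0.543 and 15.4 ± 0.432 CPM, -0.40, adjusted p = 0.00014, edgeR).

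On chromosome 11, 5 of 6 tested genes of the KCNQ1OT1 cluster, next to the H19 and IGF2 cluster, were higher in LNCaP-enzaR and none was lower, where 23.3% of all genes were higher and 19.5% lower. KCNQ1OT1, the paternally expressed antisense RNA that silences the cluster in cis, rose from 3.83 ± 0.168 to 11.1 ± 2.18 CPM (1.54, SE 0.130, adjusted p = 1.02e-07, edgeR). Maternally expressed genes of the cluster were higher as well: KCNQ1, a potassium channel gene that contains KCNQ1OT1 within its introns, by 1.19 (SE 0.110) and SLC22A18, a transporter gene, by 1.11 (SE 0.092). KCNQ1OT1 runs opposite to KCNQ1, so reads of KCNQ1 introns and of KCNQ1OT1 cannot be told apart unless strand was used. CDKN1C (0.79) and PHLDA2 (0.70) also passed, and OSBPL5 overlapped (65.1 and 67.4 CPM).

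Outside the members' clusters, 3 of 3 tested genes at the IGF2R locus on chromosome 6 fell. Over all genes, 42.7% were past the threshold and 19.5% were lower. IGF2R, the receptor that clears IGF2, fell from 243 ± 2.61 to 106 ± 6.54 CPM (-1.20, SE 0.058, adjusted p = 2.22e-10, edgeR). SLC22A2, an organic cation transporter gene, had 5.93 ± 0.385 CPM in parental cells and at most 3 counts in each resistant library, at least 180-fold lower. Its neighbour SLC22A3 also fell (-10.44). GRB10, an adaptor that restrains insulin and IGF receptors, rose from 102 ± 3.95 to 843 ± 16.8 CPM (3.05, SE 0.056, adjusted p = 1.48e-14, edgeR). Among single loci, 2 of 12 tested genes passed, both paternally expressed: ZDBF2, a zinc finger gene, rose by 0.67 on the log2 scale (SE 0.102) from 8.18 ± 0.454 CPM, and NAP1L5, which encodes a nucleosome assembly-like protein, from 4.70 ± 0.366 to 7.17 ± 1.06 CPM (0.61, SE 0.121). Without LNCaP-enzaR replicate 2 both were within 1.5-fold (0.57 and 0.49), and without parental replicate 3 NAP1L5 was as well (0.54).

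**Figure D2:**
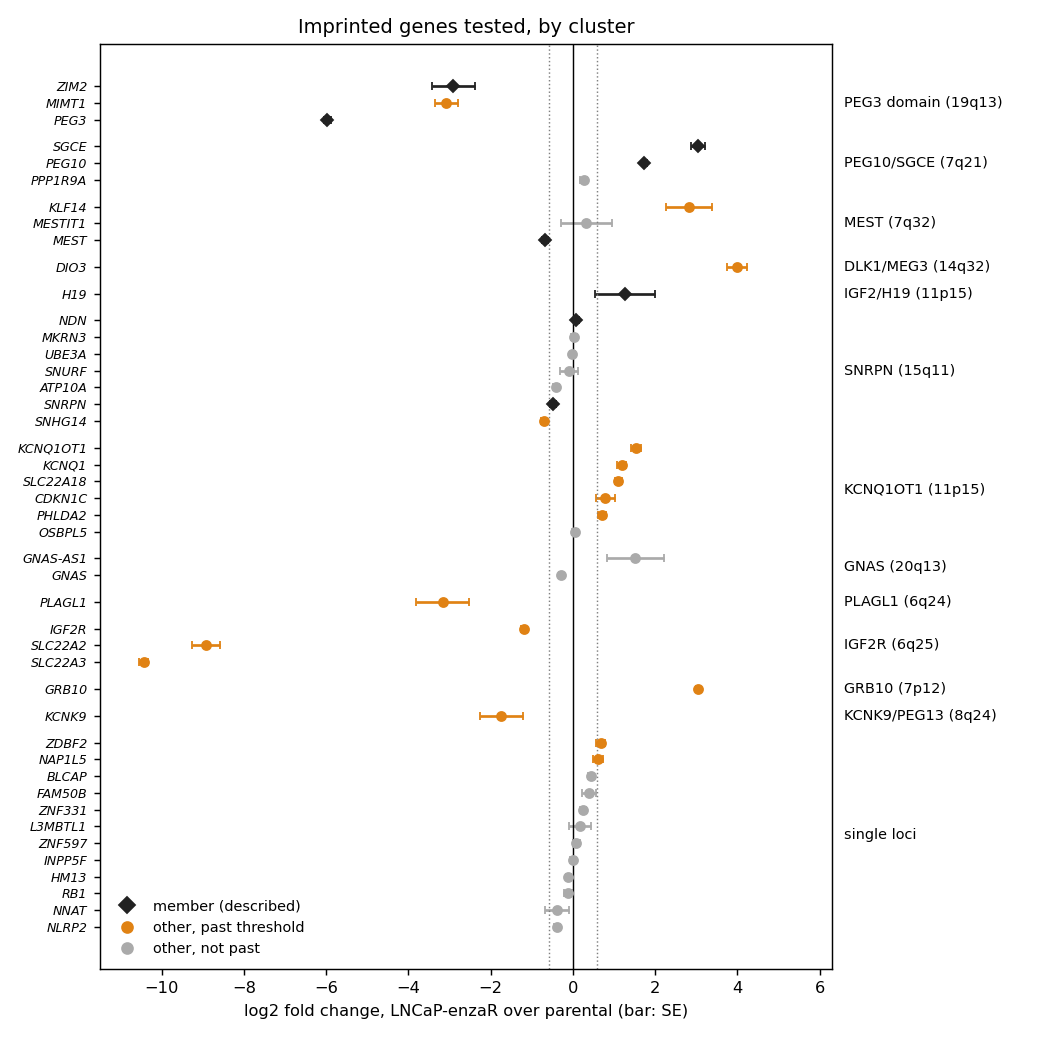
Log2 fold change (LNCaP-enzaR over parental) with its SE for the 8 members tested (black diamonds) and 36 other imprinted genes (orange, past the threshold; grey, not past), grouped by cluster; dotted lines mark 1.5-fold. Genes lie on both sides of 0, with PEG3 at -5.97 and SGCE at 3.03; SLC22A2 is drawn at its fitted value, although its resistant libraries hold at most 3 counts.

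The neighbourhood of each member was examined next, taking every tested gene whose lower coordinate lay within 500000 bases of that of a member. Of 66 such genes, of which 9 are on the list of other imprinted genes, 15 were higher and 8 lower in LNCaP-enzaR (34.8% past the threshold, beside 42.7% of all genes). Of the 57 that are not on that list, 12 were higher and 6 lower.

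Around PEG3 and ZIM2, 29 genes were tested, of which 2 were higher and 5 lower, where 23.3% of all genes were higher and 19.5% lower. The largest falls were those of AC006115.7 (0.758 ± 0.170 to 0.066 ± 0.012 CPM, -3.50, SE 0.408, adjusted p = 3.11e-06, edgeR) and MIMT1. AC006115.7 (ENSG00000286125.1) runs opposite to PEG3 and shares 3824 exon bases with it, so reads of both cannot be told apart unless strand was used. The 2 that rose were the divergent transcripts ZFP28-DT (1.42, SE 0.272) and ZNF582-DT (1.13, SE 0.182). The 10 protein-coding zinc finger genes around the domain had log2 fold changes of -0.87 to 0.33, with 2 lower, none higher and 8 not past the threshold.

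The other loci differed among themselves, where 23.3% of all genes were higher and 19.5% lower. Around H19 and IGF2, 8 of 13 tested neighbours were higher and none was lower. These include KCNQ1 and KCNQ1OT1, counted above, and of the 11 that are not on the imprinted list 6 were higher. KRTAP5-AS1 rose from 0.323 ± 0.073 to 3.64 ± 0.326 CPM (3.48, SE 0.200), and TRPM5, a cation channel gene with at most 1 count in each parental library, was at least 7.98-fold higher. The coordinates of KRTAP5-AS1 contain KRTAP5-1 and overlap the end of DUSP8, both also higher, so these counts may not be separate. TSPAN32, also among the higher ones, had only 6, 2 and 8 counts in parental libraries. Around the place that GENCODE v44 gives for MEG3, 3 of 4 were higher, among them BEGAIN (2.20, SE 0.261) and WDR25 (0.76, SE 0.089). Around MEST, 2 of 11 were higher (KLF14 and COPG2IT1, 1.60, SE 0.347) and 1 was lower (RP11-775D22.3, -1.15, SE 0.287). Around SNRPN and NDN, 2 of 7 were lower (RP11-529J17.6, -1.61, SE 0.536, and SNHG14), and RP11-529J17.6 was not past the threshold without parental replicate 1 (-1.38) or without LNCaP-enzaR replicate 3 (-1.23). Beside PEG10 and SGCE, both tested neighbours, PPP1R9A and CASD1, stayed within 1.5-fold, with log2 fold changes of 0.27 and -0.06.

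**Figure D3:**
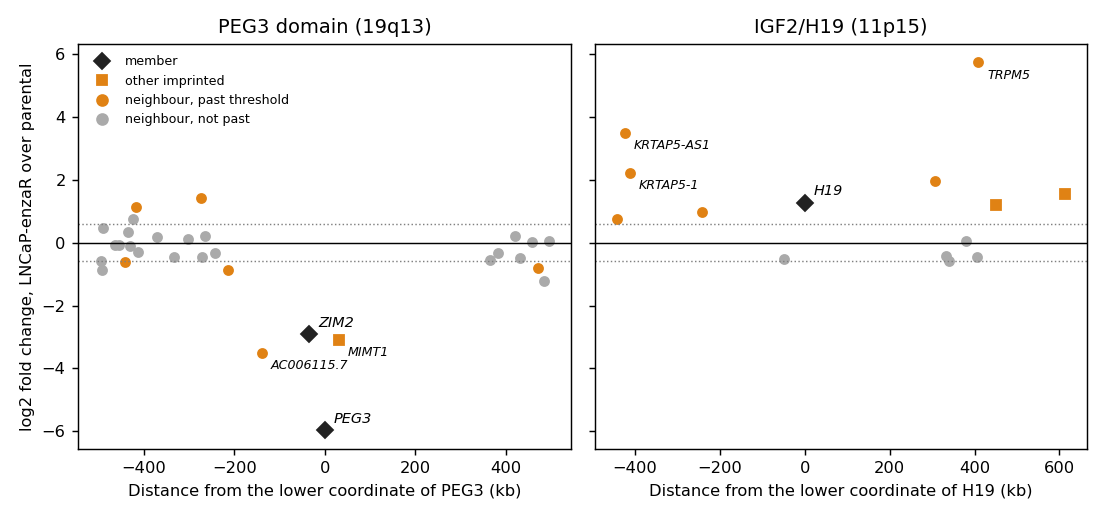
Log2 fold change (LNCaP-enzaR over parental) of tested genes against the distance in kb between their lower coordinate and that of PEG3 (left) or H19 (right); black diamonds are members, squares other imprinted genes, orange past the threshold and grey not past. PEG3, ZIM2, MIMT1 and AC006115.7 lie at -2.90 or below, and the other 27 neighbours of PEG3 and ZIM2 between -1.22 and 1.42. Of the 13 neighbours of H19 and IGF2, 8 are higher, where 23.3% of all genes were higher.

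Genes that maintain imprints were measured as a group. Of 14 listed, 11 were tested in edgeR, 4 were lower and none was higher by 1.5-fold. The share past the threshold was 36.4%, beside 42.7% of all genes, and the median log2 fold change was -0.32, beside 0.01. ZFP57 was too low to be tested, with 0, 0 and 0 counts in parental libraries and 10, 0 and 19 in LNCaP-enzaR; it was called higher with no filter on low counts and in 4 of the 6 fits that leave out a library. UHRF1, which brings DNMT1 to hemimethylated DNA, fell from 86.7 ± 3.15 to 14.8 ± 0.728 CPM (-2.55, SE 0.066, adjusted p = 4.97e-13, edgeR). DNMT1, the maintenance methyltransferase, fell from 211 ± 3.98 to 82.4 ± 3.00 CPM (-1.35, SE 0.054), and SMCHD1, a chromatin protein of imprinted clusters and the inactive X chromosome, from 187 ± 8.98 to 99.7 ± 9.92 CPM (-0.91, SE 0.072). CTCF, the insulator protein that binds the H19 control region, was the fourth (-0.71). TRIM28, SETDB1 and ZNF445, of the zinc finger complex that binds imprints, had log2 fold changes of -0.38, -0.20 and 0.07. The proliferation marker MKI67 was lower too (210 ± 9.72 to 38.2 ± 2.15 CPM), and the part of proliferation in the levels of UHRF1 and DNMT1 was not tested.

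IGF2 was scarcely detected, but its receptors were not. Of 6 partner genes, 4 were tested and 3 were lower, where 19.5% of all genes were lower. IGF1R, the receptor that carries its growth signal, fell from 109 ± 6.80 to 21.6 ± 1.49 CPM (-2.34, SE 0.072, adjusted p = 2.29e-12, edgeR). IGF2BP3, an RNA-binding protein of IGF2 mRNA, fell from 7.16 ± 0.810 to 2.99 ± 0.417 CPM (-1.25, SE 0.130), and IGF2R, which is also on the list of imprinted genes, is given above. INSR, the insulin receptor, had 27.4 ± 0.387 and 33.3 ± 0.528 CPM and stayed within 1.5-fold (0.29).

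**Figure D4:**
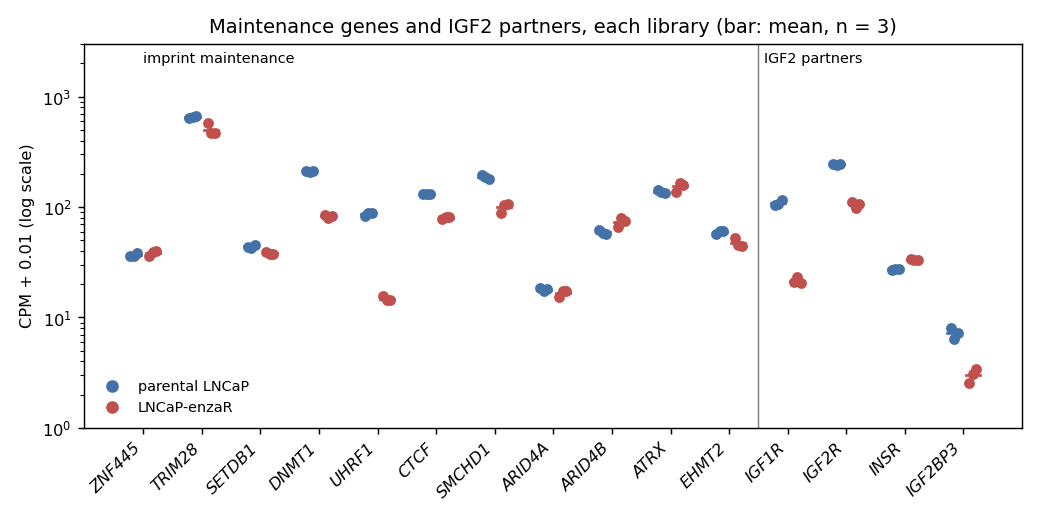
CPM plus 0.01 on a log axis for 11 imprint maintenance genes and 4 IGF2 partners in each library of parental LNCaP (blue) and LNCaP-enzaR (red), with the mean of 3 libraries as a bar. UHRF1, DNMT1, SMCHD1, CTCF, IGF1R, IGF2R and IGF2BP3 are lower in LNCaP-enzaR, and ZNF445, ARID4A and ATRX overlap.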

How the data were processed

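RNA-Seq counts of 3 parental and 3 LNCaP-enzaR libraries were analysed. Per the labels and the study's methods, the authors prepared polyadenylated RNA libraries, trimmed paired-end reads with Cutadapt, aligned them to GRCh38 with STAR and counted them per gene with featureCounts. The deposited values are raw counts, not normalized; the settings for strand and multimapping reads are not given in the sources used here. Genes were kept by filterByExpr, scaled by TMM and tested with edgeR 4.0.16 (robust quasi-likelihood F-test, no covariates; R 4.3.3). The threshold was a Benjamini-Hochberg adjusted p of at most 0.05 over 19711 genes and a fold change of at least 1.5. DESeq2 1.42.0 was an alternative, run on all 35554 genes. CPM are counts per 1000000 of the TMM-scaled library, as mean ± SD. Exon length and overlap came from GENCODE v44, a later annotation of the same build, where 99.8% of the genes were found. Of the genes found, 91.4% had the same coordinates. Where a group held at most 3 counts in every library, a bound was computed against 3 counts. SEs came from the edgeR fit and include the spread between libraries of a line. The bound divides the mean CPM of the other line by the CPM of 3 counts and makes no allowance for counting error. No 2 libraries of the same line were duplicates (chi-square per degree of freedom 5.56 or more). LNCaP-enzaR replicate 1 stood apart from replicates 2 and 3 (35.6 and 28.2), while the other pairs gave 9.06 or less.

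Groups and replicate numbers came from the sample titles. The members and gene lists were chosen with earlier results of these data known. Named genes were the members; up to 3 other imprinted genes per cluster past the threshold with a mean of at least 1 CPM in 1 line; the 2 highest and 2 lowest neighbours of each locus past the threshold; the 3 largest changes among maintenance genes and IGF2 partners; and the 3 genes most like PEG3. KLF14, MESTIT1, USP29, ZFP57 and the genes given as not past the threshold are outside that rule or were named after their values were seen, as were PHLDA2, CDKN1C and CTCF. Alternatives were DESeq2, RLE, upper-quartile and unscaled libraries, other filters and thresholds, protein-coding genes only, no mitochondrial genes, the replicate number as a block, other windows, and leaving out each library. The edgeR test was checked on simulated counts.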

Additional observations from a re-analysis of the deposited data

How the results depend on the processing

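None of the 8425 genes past the threshold changed sign in any of 15 refits that tested it. With no minimum fold change, 13074 genes, 8 maintenance genes and 35 neighbours were past the threshold; with a limit of 2-fold, 5561, 2 and 15. The neighbours past it numbered 12 with protein-coding genes only, 10 with a window of 250000 bases and 50 with 1000000 bases. Over the libraries left out in turn, 8372 to 8517 genes passed, with 15 to 18 other imprinted genes, 5 members, 23 to 27 neighbours, 4 to 5 maintenance genes (the fifth was ZFP57, higher) and 3 IGF2 partners. A fit with the replicate block called 8212 genes, of which 8174 were shared with the fit without it, and all counts of lists stayed as they were (17 other imprinted genes, 23 neighbours, 4 maintenance genes, 3 partners, 5 members); libraries of the same number did not deviate together (correlations of deviations -0.065, -0.00041 and -0.051), so the numbers do not pair them.

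Upper-quartile scaling moved the median log2 fold change of all genes by 0.10. The members' log2 fold changes that moved by more than the spread between replicates were those of PEG10 (1.84), SNRPN (-0.38) and NDN (0.18) under that scaling. Of 50 single genes tested, 47 kept their call throughout: NAP1L5 fell short of 1.5-fold with library totals (0.58), without parental replicate 3 (0.54) and without LNCaP-enzaR replicate 2 (0.49), ZDBF2 without LNCaP-enzaR replicate 2 (0.57), and GNAS-AS1 passed without parental replicate 1 (2.83). The cause was not tested. Depth limits H19, IGF2, USP29 and ZIM2, whose counts were under 50 in every library.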
